A study of Homo sapiens with 4 samples.

Results

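The genes of polycomb repressive complex 2 (PRC2) were examined in bulk RNA sequencing data of AT/RT-MYC cells before and after chemotherapy. The 10 members were listed by name, with earlier results of these data known, namely the core subunits EZH2, EZH1, EED, SUZ12, and RBBP4 and the accessory subunits JARID2, AEBP2, MTF2, PHF1, and PHF19. All 10 were among the 18449 symbols of the count table and among the 18066 genes tested, so none was lost to a filter on low values. AT/RT-MYC is a molecular group of atypical teratoid/rhabdoid tumors, which are malignant brain tumors of early childhood. BT-16 and CHLA-266 are established cell lines derived from such tumors, and each was sequenced once untreated and once after treatment, which gave 4 libraries and 2 libraries per condition. Treated cells had received doxorubicin (1 µM), then etoposide (5 µM), and last vincristine (1 µM) on consecutive days. Untreated cells had received none of these drugs. The paper reports that most treated cells died, that surviving cells later grew back, and that cells were harvested. How fast the cells divided at harvest is not given, and all 20 proliferation genes examined below were lower in the treated libraries. All cells were kept in DMEM with fetal bovine serum. The labels assign the 4 libraries to the same batch. The replicates of a condition are thus different cell lines, each derived from 1 tumor, and p values measure the spread between these lines and not between separate cultures of a line.

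PRC2 is the enzyme complex that methylates lysine K27 of histone H3 (H3K27), and the trimethylated form of this mark is found at silenced developmental genes. EZH2 and EZH1 are alternative catalytic subunits, EED binds the trimethylated mark and stimulates the enzyme, SUZ12 holds the complex together, and RBBP4 binds histones. Accessory subunits define alternative forms of the complex. JARID2 and AEBP2 belong to PRC2.2, and the polycomb-like proteins MTF2, PHF1, and PHF19 bind CpG-rich DNA and belong to PRC2.1. EZH2 is known as the catalytic subunit of dividing cells, its gene is a target of E2F transcription factors, and EZH1 is also found in cells that do not divide. In rhabdoid tumors, which are defined by the loss of a subunit of the SWI/SNF chromatin remodeling complex, EZH2 is known as an antagonist of SWI/SNF.

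After treatment, 5 of the 10 PRC2 genes were lower, 2 were higher, and 3 did not pass the test (edgeR quasi-likelihood test, Benjamini-Hochberg adjusted p value under 0.05 over all genes tested). Of all genes tested, 35.2% passed, with 16.1% higher and 19.1% lower. EZH2 fell 6.06-fold, and PHF19, EED, MTF2, and RBBP4 fell between 1.69-fold and 2.51-fold. JARID2 and PHF1 rose 2.76-fold and 2.03-fold. EZH1, SUZ12, and AEBP2 did not pass the threshold. The 10 genes had a median log2 fold change of -0.79, against 0.24 over all genes tested. The latter rests on the filter. When only the 12620 genes with at least 10 counts in each library were fitted, a set that holds all 10 members, the median over genes was 0.01. In 2 of the 10 genes both treated libraries lay above both untreated libraries, in 7 they lay below, and AEBP2 overlapped, whereas 72.6% of all genes tested had no overlap (40.2% above and 32.3% below).

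The count of lower members depended on the scaling. It was 5 with the size factors of DESeq2, 4 with totals alone, and 3 with upper-quartile factors, where 17.3%, 13%, and 10.5% of all genes were lower. JARID2 and PHF1 were higher with each of these, where 17.6%, 20.4%, and 24.1% of all genes were higher. When the model held the cell line as a block, 2 members were higher and 6 were lower, and 41.6% of all genes passed.

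**Figure D1:**
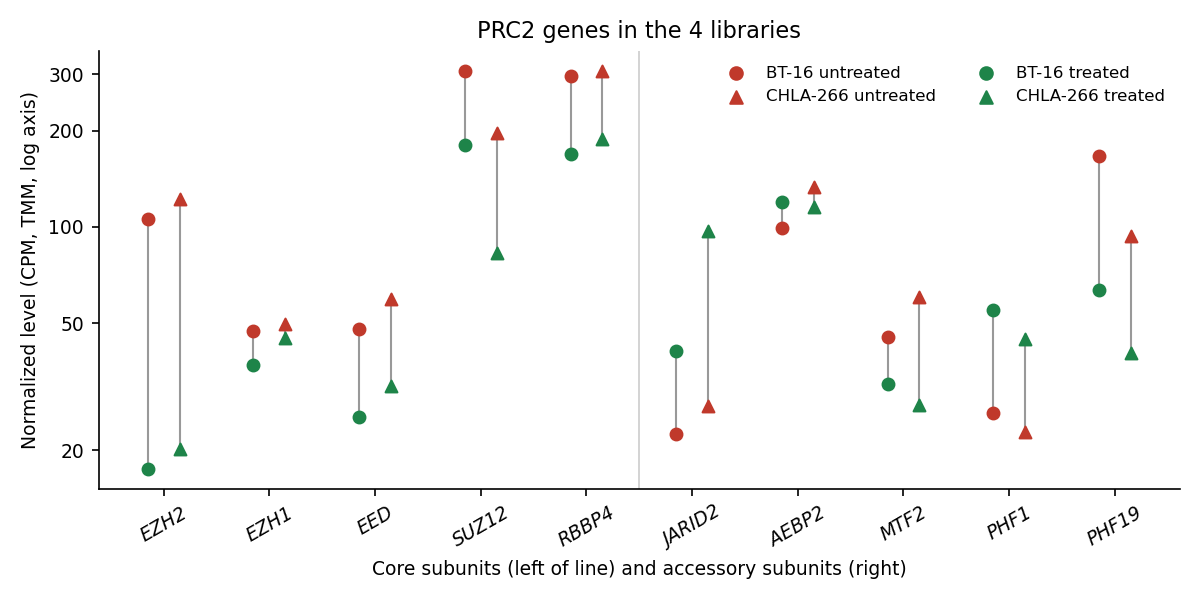
Normalized level of each PRC2 gene in CPM (counts scaled to library size with TMM factors, log axis) in the 4 libraries, with 1 point per library and a line joining the untreated (red) and treated (green) library of a cell line. EZH2 fell from 106 to 17.5 CPM in BT-16 and from 122 to 20.2 CPM in CHLA-266, while JARID2 and PHF1 were higher in both treated libraries and AEBP2 overlapped.

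The libraries held between 49849258 and 75087194 counts, and the treated libraries were the shallower ones of each line. The PRC2 genes had between 1013 and 21174 counts in each library. Since the strand setting is not known, reads of JARID2 and EED cannot be told apart from those of antisense RNAs annotated across them, nor reads at the ends of RBBP4 and PHF1 from those of the neighboring genes SYNC and CUTA, and EZH2, EED, SUZ12, and RBBP4 have pseudogenes that could take some of their reads. The scaling between libraries moved the median log2 fold change of all genes from 0.24 with TMM to 0.46 with library totals and 0.59 with upper-quartile factors, and the share of higher genes among all called genes from 45.7% to 61.0% and 69.7%. Relative to the median of all genes, a distance that a scaling factor cannot change, EZH2 was at -2.84. This distance does depend on the genes kept. In the fit of the 12620 genes with at least 10 counts in each library, the median was 0.01 and the log2 fold change of EZH2 was -2.42. As checks of the labels, MYC was lower after treatment (14275 counts before and 6804 after treatment in BT-16, 11515 before and 7505 after in CHLA-266, log2 fold change of -0.59, adjusted p = 0.0289). SMARCB1, the SWI/SNF gene that rhabdoid tumors lose, was not at 0 (1394, 981, 1313, and 827 counts in the same order), and transcript counts cannot show whether protein is made. Of 388 olfactory receptor genes, which these cells should not use, 124 and 92 were detected in the untreated libraries of BT-16 and CHLA-266. In the treated libraries 300 and 214 were detected, so counts at these genes moved with the treatment. Whether such counts are background or low transcription was not tested. Per kilobase of all annotated exons, the lowest PRC2 gene of the treated libraries was EZH2. It still lay 3.58-fold (BT-16) and 4.62-fold (CHLA-266) above the 95th percentile of these receptors. EZH2 has 10774 bases of such exons but a canonical transcript of 2654 bases, which lowers its value here. Per canonical transcript, MTF2 and not EZH2 was lowest in treated CHLA-266 cells (6.81 and 7.61 CPM per kilobase), and the receptors were not compared with this length.

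The windows around the transcription start of 4 members are shown, because EZH2 and PHF19 are the members with the largest decreases, EZH1 is the paralog of EZH2, and PHF1 is the polycomb-like gene that rose. Each window holds 250 bases before and 50 bases after the start, as listed by RefSeq on GRCh38.p14, and is written 5′ to 3′ on the strand of the gene. Capitals mark an E2F site (TTTGGCGC or TTTCGCGC) or a CCAAT box (CCAAT) on either strand.
EZH2, chr7:148884242-148884541, minus strand: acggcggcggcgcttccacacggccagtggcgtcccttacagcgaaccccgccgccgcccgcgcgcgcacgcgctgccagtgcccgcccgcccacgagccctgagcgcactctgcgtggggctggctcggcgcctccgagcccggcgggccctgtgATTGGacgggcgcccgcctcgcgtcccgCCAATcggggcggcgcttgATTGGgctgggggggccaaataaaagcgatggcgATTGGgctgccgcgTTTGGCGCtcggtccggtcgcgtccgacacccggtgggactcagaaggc
EZH1, chr17:42744991-42745290, minus strand: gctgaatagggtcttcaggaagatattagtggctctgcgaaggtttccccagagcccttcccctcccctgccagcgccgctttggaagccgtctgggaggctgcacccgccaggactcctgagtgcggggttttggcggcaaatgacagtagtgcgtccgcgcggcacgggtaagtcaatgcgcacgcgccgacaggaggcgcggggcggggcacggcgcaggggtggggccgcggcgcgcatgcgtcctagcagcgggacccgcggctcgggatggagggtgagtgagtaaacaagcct
PHF19, chr9:120877139-120877438, minus strand: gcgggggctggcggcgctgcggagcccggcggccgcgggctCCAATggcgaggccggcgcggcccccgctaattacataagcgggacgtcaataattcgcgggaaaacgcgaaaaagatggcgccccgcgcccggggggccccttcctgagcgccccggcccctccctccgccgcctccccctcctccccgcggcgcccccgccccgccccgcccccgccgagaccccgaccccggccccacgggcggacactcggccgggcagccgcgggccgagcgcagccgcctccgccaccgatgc
PHF1, chr6:33410764-33411063, plus strand: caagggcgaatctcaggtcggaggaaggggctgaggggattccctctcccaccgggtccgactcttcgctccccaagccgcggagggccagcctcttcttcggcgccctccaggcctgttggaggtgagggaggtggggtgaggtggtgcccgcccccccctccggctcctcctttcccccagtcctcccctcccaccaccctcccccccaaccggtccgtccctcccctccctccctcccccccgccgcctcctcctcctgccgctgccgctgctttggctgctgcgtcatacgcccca

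The EZH2 window held the E2F letters TTTGGCGC at bases 2 to 9 of the transcript and 4 CCAAT boxes between bases -94 and -9. EZH2 was the 1 member of 10 with these E2F letters, which were found in 1.15% of 35116 windows of this length. A further E2F motif, GGCGGGAA, was found in none of the 10 members and in 3.16% of all windows. Only these forms of the E2F site were searched, so a member without them can hold another form. The form TTTCCCGC was not searched over all windows. Its letters stand in the SUZ12 window and, on the other strand, in the PHF19 and MTF2 windows. CCAAT boxes were found in 6 of 10 members (EZH2, EED, SUZ12, RBBP4, JARID2, and PHF19) and in 34.6% of all windows, and thus in both falling and rising members. The AEBP2 window lies 1107 bases from the start of its canonical transcript, so motifs at that start were not searched. The cell cycle motif TTTGAA was found in SUZ12 and in 15.2% of all windows. The EZH1 and PHF1 windows held none of these motifs. The windows of the members had no overlap of 1 motif with another, and GC content was 74.7% for EZH2, 67% for EZH1, 79.7% for PHF19, and 71.7% for PHF1, while the median of all windows was 58.7%.

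EZH2 (chr7:148807257-148884321 on hg38, minus strand) had the largest change of the members. Untreated BT-16 and CHLA-266 cells had 7322 and 7528 counts. The treated cells had 1013 and 1049 counts. The 2 untreated libraries were close to each other, and so were the 2 treated libraries. On the log2 scale the change was -2.60 (standard error of 0.18, edgeR adjusted p = 1.96e-05). Within BT-16, the log2 ratio was -2.60 with a 95% interval from -2.69 to -2.50, and within CHLA-266 it was -2.60 with an interval from -2.69 to -2.51. The intervals hold counting error alone and would be wider if both reads of a pair were counted. With halved counts they widened to -2.73 to -2.46 for BT-16 and -2.73 to -2.47 for CHLA-266. Since these are bulk samples, fewer cells that use a gene and less RNA per cell cannot be told apart, here and for each gene below.

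EZH1 (chr17:42700275-42745049, minus strand) changed little. It had 3247 counts before and 2132 after treatment in BT-16, and 3053 before and 2331 after in CHLA-266. Its level went from 47.1 to 36.9 CPM in BT-16 and from 49.6 to 44.9 CPM in CHLA-266, so the treated libraries lay just below the untreated ones. The log2 fold change was -0.24 (standard error of 0.17, edgeR adjusted p = 0.294). With upper-quartile factors it was 0.10, so the direction of EZH1 rests on the scaling.

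A ratio of EZH2 to EZH1 within a library needs no scaling between libraries, but it needs gene lengths. Per kilobase of all annotated exons, EZH2 was 1.46-fold above EZH1 in untreated BT-16 cells and 1.60-fold above it in untreated CHLA-266 cells. After treatment the order was turned, and EZH1 was 3.24-fold above EZH2 in BT-16 and 3.43-fold in CHLA-266. The mean log2 ratio was 0.61 (SD of 0.091, n = 2) in untreated and -1.74 (SD of 0.055, n = 2) in treated cells, which is a 5.10-fold drop. The difference of -2.35 exceeded the spread between the cell lines in each condition, with -2.25 in BT-16 and -2.45 in CHLA-266. The exact two-sided permutation test gave p = 0.333, which is the smallest value that 2 against 2 libraries allow.

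The size of the ratio, but not the turn in its order, rested on the length used. EZH2 has 10774 bases of annotated exons but a canonical transcript of 2654 bases, and EZH1 has 6988 and 4633 bases. Per canonical transcript, EZH2 was 3.94-fold and 4.30-fold above EZH1 in untreated BT-16 and CHLA-266 cells, and EZH1 was 1.21-fold and 1.27-fold above EZH2 after treatment. The share of EZH2 in the summed level of both genes fell from 59.4% to 23.6% in BT-16 and from 61.5% to 22.6% in CHLA-266 per length of all exons. Per canonical transcript it went from 79.7% to 45.3% in BT-16 and from 81.1% to 44% in CHLA-266. The summed level of both catalytic subunits was 2.40-fold lower after treatment in BT-16 (16.6 and 6.90 CPM per kilobase of exon) and 2.22-fold lower in CHLA-266 (18.4 and 8.29). The summed level was thus lower in each line while that of EZH1 itself was 1.28-fold and 1.11-fold lower. The size of the drop in the sum also rests on the length used. Per kilobase of canonical transcript, EZH2 went from 40.0 to 6.6 CPM in BT-16 and from 46.1 to 7.61 CPM in CHLA-266. EZH1 went from 10.2 to 7.96 CPM in BT-16 and from 10.7 to 9.68 CPM in CHLA-266.

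**Figure D2:**
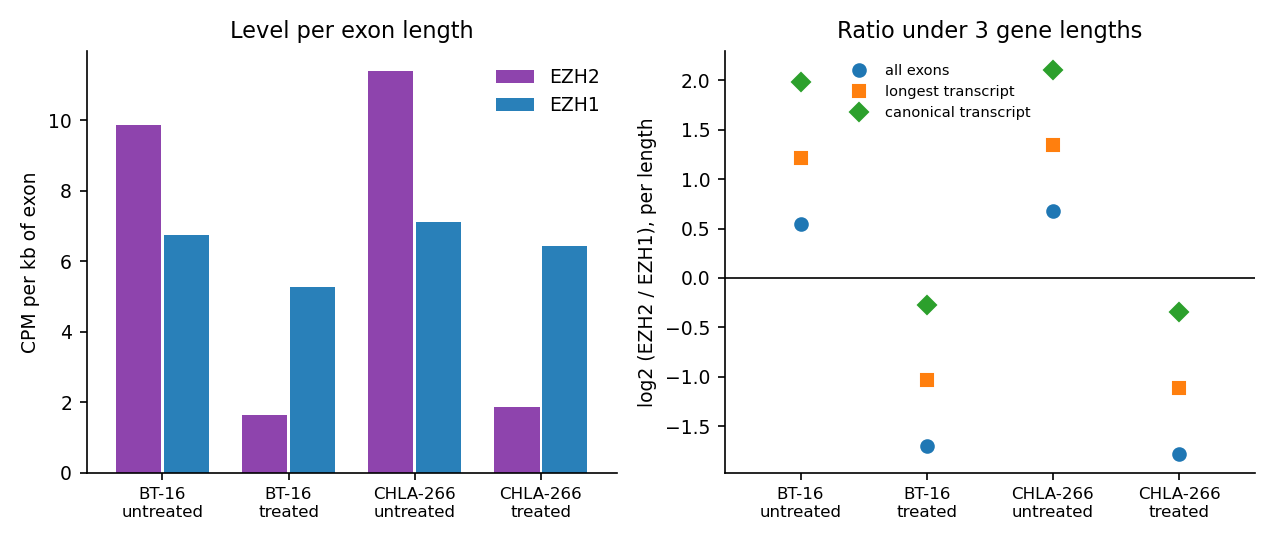
EZH2 and EZH1 in CPM per kilobase of all annotated exons in each library (left, bars from 0, 1 library each and no error bar) and the log2 ratio of EZH2 to EZH1 per library with the length of all exons, the longest transcript, or the canonical transcript (right). The ratio was above 0 in both untreated and below 0 in both treated libraries with each length.

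EED (chr11:86201212-86278813, plus strand), the subunit that reads the mark, fell 1.88-fold. It had 3314 counts before and 1468 after treatment in BT-16, and 3664 before and 1654 after in CHLA-266. Both lines moved alike, with log2 ratios of -0.92 and -0.90. This gave a log2 fold change of -0.91 (standard error of 0.20, edgeR adjusted p = 0.00853). Without the untreated CHLA-266 library it was -0.75 and no longer passed (adjusted p = 0.059). 

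RBBP4 (chr1:32651142-32686211, plus strand), a histone-binding protein shared with other chromatin complexes, fell 1.69-fold. It had 20389 counts before and 9754 after treatment in BT-16, and 18936 before and 9766 after in CHLA-266. The 2 lines thus had nearly the same level before and after treatment. The log2 fold change was -0.76 (standard error of 0.16, edgeR adjusted p = 0.00793), and it was -0.41 and did not pass with upper-quartile factors (adjusted p = 0.0621).

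SUZ12 (chr17:31937007-32001038, plus strand), the scaffold of the complex, was the core subunit in which the lines stood furthest apart. BT-16 had 21174 counts (307 CPM) before and 10386 counts (180 CPM) after treatment. CHLA-266 had 12131 counts (197 CPM) before and 4306 counts (82.9 CPM) after treatment. The treated libraries lay below the untreated ones, but treated BT-16 cells were close to untreated CHLA-266 cells. Its log2 fold change of -0.94 (standard error of 0.34) did not pass the test (edgeR adjusted p = 0.0622). With the cell line as a block, which takes out the difference between the lines, it was -1.01 and passed (adjusted p = 3.16e-06), and it also passed with DESeq2 without the block (adjusted p = 0.0344). SUZ12 was 1.56-fold higher in BT-16 than in CHLA-266 before and 2.17-fold higher after treatment. SUZ12 passed without the treated BT-16 library (log2 fold change of -1.60, adjusted p = 6.77e-10) and without the untreated CHLA-266 library (-1.23, adjusted p = 0.0372), and did not pass without the untreated BT-16 library (-0.59, adjusted p = 0.254) or the treated CHLA-266 library (-0.47, adjusted p = 0.113).

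JARID2 (chr6:15246069-15522042, plus strand), which recruits PRC2.2 to chromatin, was the member with the largest increase. It had 1550 counts before and 2362 after treatment in BT-16, and 1694 before and 5036 after in CHLA-266. The increase was seen in both lines, and the treated CHLA-266 library stood above the other 3. The log2 fold change was 1.46 (standard error of 0.35, edgeR adjusted p = 0.0132), with log2 ratios of 0.86 in BT-16 and 1.82 in CHLA-266. Whether the lines differed in this response could not be tested with 1 library each. Without the treated CHLA-266 library the log2 fold change was 0.72 and still passed (adjusted p = 0.0155). JARID2 was 1.22-fold higher in CHLA-266 than in BT-16 before and 2.37-fold higher after treatment.

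AEBP2 (chr12:19404045-19720801, plus strand), the other PRC2.2 subunit, had 6866 counts before and 6918 after treatment in BT-16, and 8188 before and 5970 after in CHLA-266. Its level went from 99.5 to 120 CPM in BT-16 and from 133 to 115 CPM in CHLA-266, so the groups overlapped and the lines had opposite signs. Taken over both lines, the change was 0.01 on the log2 scale (standard error of 0.18, edgeR adjusted p = 0.961). With upper-quartile factors it was 0.36 and did not pass either.

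The polycomb-like genes moved in different directions. PHF19 (chr9:120855651-120894896, minus strand) had 11427 counts before and 3659 after treatment in BT-16, and 5769 before and 2090 after in CHLA-266. It fell in both lines from different levels, being 1.77-fold higher in BT-16 before and 1.57-fold higher after treatment. The log2 fold change was -1.33 (standard error of 0.30, edgeR adjusted p = 0.0101), and it was -0.86 without the untreated BT-16 library (adjusted p = 0.0425).

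MTF2 (chr1:93079235-93139079, plus strand) had 3122 counts before and 1864 after treatment in BT-16, and 3706 before and 1442 after in CHLA-266. It was lower in both treated libraries, with log2 ratios of -0.49 in BT-16 and -1.12 in CHLA-266. Its log2 fold change over both lines was -0.81 (standard error of 0.20, edgeR adjusted p = 0.014). It did not pass without the untreated CHLA-266 library (-0.59, adjusted p = 0.108), with library totals (-0.58, adjusted p = 0.0584), or with upper-quartile factors (-0.47, adjusted p = 0.104).

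PHF1 (chr6:33410399-33416453, plus strand) had 1803 counts before and 3166 after treatment in BT-16, and 1405 before and 2315 after in CHLA-266. Both lines moved upward by a like amount, with log2 ratios of 1.07 and 0.96. The increase on the log2 scale was 1.02 (standard error of 0.19, edgeR adjusted p = 0.0045), and PHF1 passed under each of the scalings and with each library left out.

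The make-up of the polycomb-like transcripts therefore differed before and after treatment. Of the summed level of PHF19, MTF2, and PHF1 per kilobase of exon, PHF19 held 62.7% before and 31.7% after treatment in BT-16, and 46.2% before and 26.3% after in CHLA-266. The share of PHF1 was 18.1% before and 50.3% after treatment in BT-16, and 20.6% before and 53.4% after in CHLA-266. PHF19 was thus the most abundant of the 3 in both untreated libraries and PHF1 in both treated libraries, also with the length of the canonical transcript. MTF2 held 19.1% before and 18% after treatment in BT-16, and 33.1% before and 20.3% after in CHLA-266. These shares have 1 library per line and condition and were not tested.

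**Figure D3:**
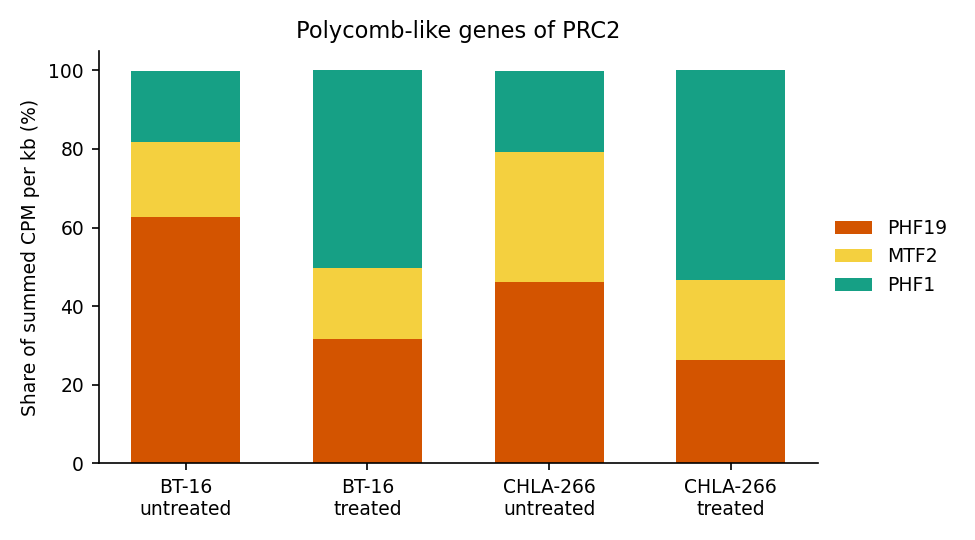
Share of PHF19, MTF2, and PHF1 in their summed level (CPM per kilobase of exon, in percent) in each of the 4 libraries, with 1 library per bar and no error bar. PHF1 held 18.1% and 20.6% in the untreated and 50.3% and 53.4% in the treated libraries.

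**Figure D4:**
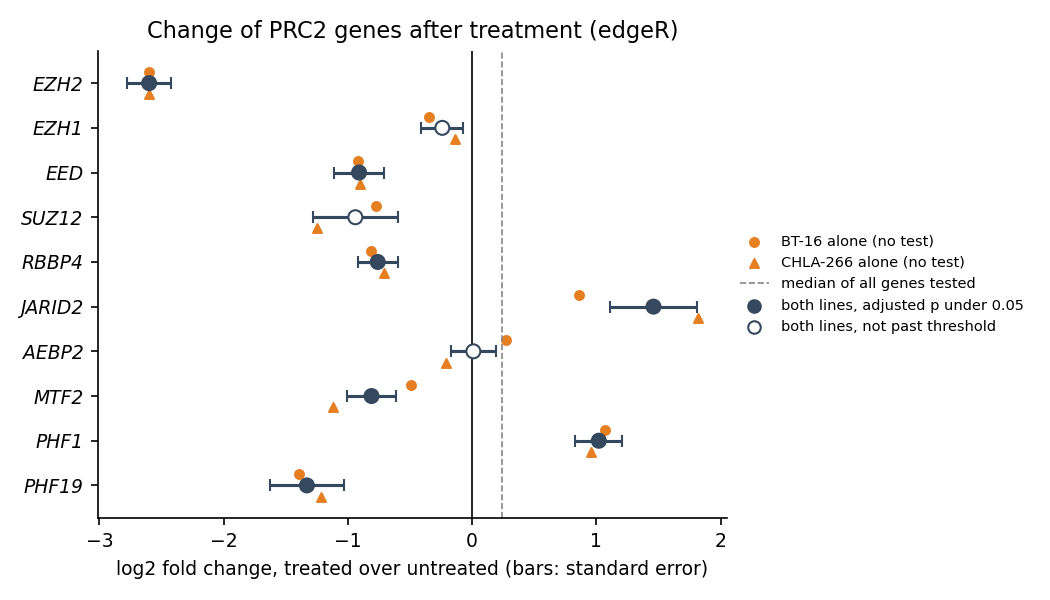
Log2 fold change of each PRC2 gene over both cell lines (large points, bars for the standard error, filled where the edgeR adjusted p value was under 0.05) with the log2 ratio within BT-16 and within CHLA-266 (small orange points, 1 library per condition and no test). The dashed line marks the median of all genes tested at 0.24, and AEBP2 is the gene whose lines lay on opposite sides of 0.

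Per kilobase of exon, SUZ12 and RBBP4 held the first 2 ranks among the 10 members in both untreated libraries. JARID2 was at rank 10 in both untreated libraries and moved to rank 6 in treated BT-16 and rank 3 in treated CHLA-266 cells. EZH2 was at rank 5 before treatment and at rank 10 after it in both lines. The ranks of JARID2 and RBBP4 rested on the length used. With canonical transcript lengths, JARID2 moved from rank 10 to rank 9 in BT-16 and to rank 5 in CHLA-266, and RBBP4 was at rank 4 and rank 3 in the untreated libraries. With these lengths, EZH2 was at rank 2 and rank 1 in untreated and at rank 10 and rank 9 in treated BT-16 and CHLA-266 cells. Neighbors in these ranks were not tested against each other.

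Among the 10340 genes that reached 100 counts in each library, the profile of EZH2 over the 4 libraries was closest to those of NUDT1, SPDL1, and ZWILCH, by the distance of centered log2 CPM values (0.037, 0.042, and 0.091). The profile of EZH1 was closest to those of DDX39B, SPPL3, and DDX42 (distances of 0.013, 0.018, and 0.024). Each distance rests on 4 libraries.

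Other genes around the complex were examined as lists written from general knowledge. EPOP, a further PRC2.1 subunit, was lower, with 854 counts before and 140 after treatment in BT-16, and 704 before and 106 after in CHLA-266 (log2 fold change of -2.41, edgeR adjusted p = 0.00092). LCORL was also lower (log2 fold change of -1.04, adjusted p = 0.011), and LCOR did not pass (-0.12, adjusted p = 0.626). Of the 3 genes, 1 and not 2 was lower with upper-quartile factors and without the untreated CHLA-266 library. Of 3 other H3K27 enzymes, the demethylase KDM6B was higher (log2 fold change of 0.61, adjusted p = 0.0307), and 2 did not pass. KDM6B was not called without the treated BT-16 library or without the untreated CHLA-266 library. RBBP7, EZHIP, and KDM6A were not analysed here.

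Polycomb repressive complex 1 (PRC1) places ubiquitin on histone H2A. Of its 21 genes tested, 1 was higher, 6 were lower, and 14 did not pass, with a median log2 fold change of -0.33. This share is near the 35.2% of all genes, and the lower ones numbered 3 with library totals, with upper-quartile factors, and without the untreated CHLA-266 library, and 4 without the untreated BT-16 library. RNF2, a catalytic subunit of PRC1, was lower (-1.47, edgeR adjusted p = 0.000864), and its paralog RING1 did not pass (-0.11, adjusted p = 0.723). SCMH1 was lower (-1.05, adjusted p = 0.00267), whereas RYBP was higher (0.94, adjusted p = 0.00438). The lists that follow stand beside 16.1% of all genes tested that were higher and 19.1% that were lower. Of 9 genes of the H2A deubiquitinases, 2 were higher (ASXL3 and FOXK1) and 2 were lower (FOXK2 and USP16), while 1 was higher when either untreated library was left out and 4 were lower with the cell line as a block. Among 5 methyltransferases of histone H3 lysine K36, a mark that PRC2 does not act on readily, NSD2 (-2.41, adjusted p = 2.1e-05) and NSD1 (-0.87, adjusted p = 0.00675) were lower. Of 17 SWI/SNF genes, 9 were lower and 1 was higher, with a median of -0.56, but 3 were lower and 2 higher with upper-quartile factors, and 5 were lower without the untreated CHLA-266 library. ACTL6A and SMARCD1 were lower (-1.53 and -1.31), and SMARCA2, an ATPase of the complex, was higher from low counts (13 and 378 in BT-16, 25 and 148 in CHLA-266, log2 fold change of 3.98, adjusted p = 0.00292).

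E2F and RB family genes moved alongside EZH2. Of 16 genes, 12 were lower (against 19.1% of all genes tested) and none was higher, with a median log2 fold change of -1.41. The lower ones numbered 9 with library totals, 9 among genes with 10 counts or more in each library, and 8 with upper-quartile factors. E2F1 had 1835 counts before and 234 after treatment in BT-16, and 1406 before and 67 after in CHLA-266, and MYBL2 and E2F8 fell the most (-5.67 and -4.20). All 20 proliferation genes were lower, with a median of -4.09. MKI67, the gene of the Ki-67 proliferation marker, had 109853 counts before and 1262 after treatment in BT-16, and 96814 before and 1386 after in CHLA-266. The summed level of these 20 genes was 6510 CPM before and 431 after treatment in BT-16, and 6443 before and 419 after in CHLA-266. Proliferation genes thus differed in the same direction as EZH2, PHF19, EED, MTF2, and RBBP4, and their part in the changes of PRC2 genes was not tested.

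**Figure D5:**
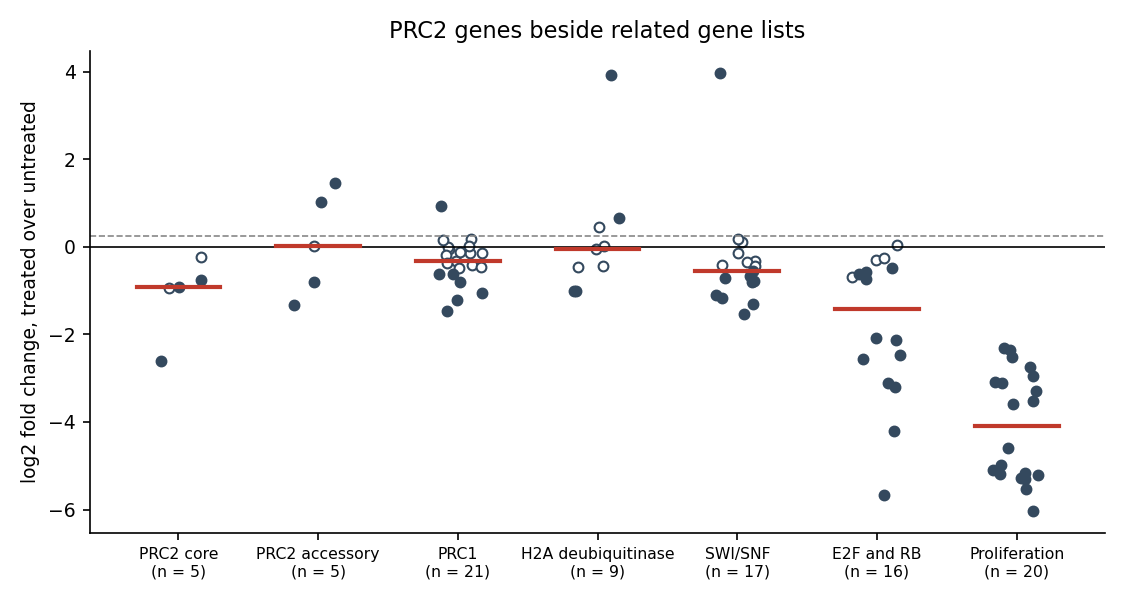
Log2 fold change (treated over untreated) of each gene of the PRC2 core, the PRC2 accessory subunits, PRC1, the H2A deubiquitinases, SWI/SNF, the E2F and RB families, and proliferation, with 1 point per gene, filled where the edgeR adjusted p value was under 0.05, and a red line at the median of each list. The dashed line marks the median of all genes tested, and the medians were -0.91, 0.01, -0.33, -0.05, -0.56, -1.41, and -4.09 in this order.

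Among genes known as PRC2 targets, calls were made in both directions. Of 30 such genes, 11 were higher, 5 were lower, and 14 did not pass, with a median log2 fold change of 2.40 (2.39 with the 6 genes at 3 counts or fewer in both untreated libraries set to the bound that 3 counts give). Among all genes tested, 16.1% were higher and 19.1% were lower, so the share of lower targets is near that of all genes. Of the 30 genes, 24 had a log2 fold change above 0, as had 10350 of the 18066 genes tested. The lower ones numbered 1 with library totals, with upper-quartile factors, and without the untreated BT-16 library, and 2 without the untreated CHLA-266 library and 3 without the treated CHLA-266 library. The higher ones numbered 7 without the untreated CHLA-266 library and 4 among genes with 10 counts or more in each library. CDKN2B, a cell cycle inhibitor at a locus that PRC2 is known to silence, had 594 counts before and 1810 after treatment in BT-16, and 651 before and 2502 after in CHLA-266. Its log2 fold change was 2.05 (edgeR adjusted p = 0.000707). The neighboring inhibitor CDKN2A moved the other way, with 3293 counts before and 1194 after treatment in BT-16, and 2275 before and 960 after in CHLA-266 (log2 fold change of -1.11, adjusted p = 0.0041). SOX9, a developmental transcription factor, rose to 520 (BT-16) and 508 counts (CHLA-266) from 6 counts in each untreated library (log2 fold change of 6.64, adjusted p = 2.7e-05). DAB2IP was lower (-0.77, adjusted p = 0.0148). The summed level of the 30 genes was 1691 CPM before and 943 after treatment in BT-16, and 1700 before and 1334 after in CHLA-266. Most of it came from SLIT2, named after its values were seen, which had 1483 CPM before and 738 after treatment in BT-16, and 1531 before and 1106 after in CHLA-266. The other 29 genes summed to 207 CPM before and 205 after treatment in BT-16, and 169 before and 228 after in CHLA-266.

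Of 39 HOX genes, the classical targets of polycomb complexes, 7 were higher and none was lower, with a median log2 fold change of 2.74. This share is near the 16.1% of all genes that were higher, and the count was 4 without the treated CHLA-266 library and 1 among genes with 10 counts or more in each library. With the 17 genes at 3 counts or fewer in both untreated libraries set to this bound, it was 1.94. HOXB9 had 12 counts before and 202 after treatment in BT-16, and 8 before and 88 after in CHLA-266, and HOXC12 was at 0 in both untreated libraries and had 39 and 49 counts after treatment, which is at least 17.5-fold higher (against a floor of 3 counts in each untreated library). The summed level of the 39 genes was 13.5 CPM before and 34.6 after treatment in BT-16, and 8.87 before and 21.4 after in CHLA-266. Genes that these cells should not use were also called. Of 15 tissue-restricted genes, 4 were higher and none was lower, with a median of 4.39 (2.41 with 7 genes at the bound), and their summed level was 0.739 CPM before and 8.04 after treatment in BT-16, and 0.552 before and 5.85 after in CHLA-266. With 1 library left out, 1 or 2 of these genes were higher (1 without the treated BT-16 library), and none with 10 counts or more in each library. Of 10 macrophage genes, 3 were higher, with a summed level of 6.57 CPM before and 11.1 after treatment in BT-16, and 3.41 before and 7.27 after in CHLA-266. Of 6 fibroblast genes, 2 were higher, with 8.48 CPM before and 20.3 after treatment in BT-16, and 4.01 before and 11.5 after in CHLA-266. The macrophage count was 1 when either CHLA-266 library was left out, and the fibroblast count was 1 without the treated BT-16 or the untreated CHLA-266 library and 4 without the treated CHLA-266 library. Whether these low counts are background, and whether background has a part in the values of low HOX and target genes, was not tested. Of 10 housekeeping genes, 5 were lower (3 with library totals, with upper-quartile factors, and without the untreated BT-16 library), among them PPIA (-1.25) and GUSB (-1.32).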

How the data were processed

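Bulk RNA of BT-16 and CHLA-266 cells, untreated and treated, was sequenced with 1 library per cell line and condition (SMART-Seq Stranded kit). According to the methods and processing notes, reads were demultiplexed with bcl2fastq 2.20, trimmed with Skewer, aligned to hg38 with STAR, and counted per gene, and repeatedly counted genes and genes of the sex chromosomes were removed. Estimated counts per gene symbol were deposited by the authors without normalization, and 5 values in 2 genes were rounded. The log2 values deposited by the authors come from the variance-stabilizing transformation of DESeq2 (17553 genes) and were used for an alternative. How read pairs and strands were counted is not given in the sources used here, and between 20.5% and 34.2% of counts from 1 to 20 were odd.

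Of 18449 symbols, 383 had a total of 0. The 18066 others were tested with edgeR 4.0.16 (TMM, quasi-likelihood, adjusted p value under 0.05) in R 4.3.3. The libraries are paired by cell line, and deviations from condition means correlated at 0.254 across 12620 genes. Ratios within a line used 0.5 added counts and exact Clopper-Pearson 95% intervals. CPM were scaled with TMM. Exon lengths and coordinates come from GENCODE 44 (18357 symbols matched), and promoter windows from RefSeq. Alternatives were a block for the cell line, DESeq2 in version 1.42.0, other scalings and filters, limma 3.58.1 on the log2 values, halved counts, and each library left out. The canonical transcript length was added after seeing the data. The members and lists were chosen with earlier results of these data known. Named genes were all members, the 2 called genes of smallest adjusted p value per direction and list, the 3 genes nearest in profile to EZH2 and EZH1, and the label checks. Other genes (E2F1, LCOR, RING1, and SLIT2) were named after their values were seen. The tests were also run on simulated data that varied less between libraries than these data, so their rate of false calls here was not measured.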

Additional observations from a re-analysis of the deposited data

Results flagged for a closer look

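AEBP2 moved in opposite directions in the cell lines, with log2 ratios of 0.27 in BT-16 and -0.21 in CHLA-266. The difference between the lines was not tested, since each line had 1 library per condition.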

How the results depend on the processing

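EZH2 passed the threshold with each alternative, with log2 fold changes between -2.60 and -2.25 and between -2.70 and -2.49 with 1 library left out. EZH1 passed with none of them and was reversed to 0.10 with upper-quartile factors, and within CHLA-266 it was 0.02 with library totals. AEBP2, at 0.01 and between -0.18 and 0.24 with 1 library left out, was reversed to -0.18 without the untreated BT-16 library and to -0.02 without the treated BT-16 library. The change of the ratio of EZH2 to EZH1 was -2.35 with 5 added counts and -2.13 with the log2 values (a gene length cancels in it), and between -2.45 and -2.25 within the lines. Of the PRC2 genes, 2 were higher with each alternative. Lower ones numbered 5, but 6 with DESeq2 (with and without the block) and with halved counts, where SUZ12 passed (adjusted p = 0.0416), 4 with library totals, 3 with upper-quartile factors, 2 with an absolute log2 fold change over 1, and 4 to 6 with 1 library left out. With the replicate block (cell line), 6 were lower, since SUZ12 then passed, and no other call of a member changed. The 6364 called genes of the table became 4144 with an absolute log2 fold change over 1. The causes were not tested. With 1 library left out, the lone library of its condition was assumed to vary like the others. The lowest count of a member was 1013, and the part of depth in its calls was not tested beyond halved counts.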
